A study of Rattus norvegicus with 232 samples.

Results

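The 10 genes described here make and load the class I molecules of the major histocompatibility complex (MHC), which in the rat is called RT1. They were taken by name, with no threshold on a measured value but with earlier results of these data known, and are 10 of the 20859 features in a table of brain gene expression built on the RefSeq annotation. Of the 10, 8 were found among the 18309 features of a first Ensembl-based table and 7 among the 18644 features of a second Ensembl-based table. Tapbp and RT1-N3 could not be matched to an Ensembl identifier and Psmb10 was not used in the second Ensembl table.

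A class I molecule is a polymorphic heavy chain bound to the light chain beta-2-microglobulin, and it carries a short peptide to the cell surface, where CD8 T cells read it. RT1-A2 encodes a classical heavy chain, RT1-S3 and RT1-N3 encode heavy chains of the non-classical kind, and B2m encodes the light chain. Tap1 and Tap2 encode the subunits of the transporter that brings peptides into the endoplasmic reticulum, and Tapbp encodes tapasin, which holds an empty class I molecule beside that transporter. Psmb8, Psmb9 and Psmb10 encode the catalytic subunits that interferon adds to the proteasome in place of the constitutive subunits encoded by Psmb5, Psmb6 and Psmb7. In the healthy brain class I expression is known to be low in neurons and higher in microglia and vascular cells. In these bulk samples fewer cells of a type and less RNA per cell cannot be told apart.

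Total RNA depleted of ribosomal RNA was sequenced from the brains of untreated rats of 74 strains of the Hybrid Rat Diversity Panel, with no group given any agent. The RefSeq table holds 214 libraries from 197 animals, of which 54 strains have 3 animals, 15 have 2 and 5 have 1. There are 30 HXB/BXH recombinant inbred strains, derived from crosses of BN-Lx/Cub with the spontaneously hypertensive SHR/OlaIpcv, 19 FXLE/LEXF recombinant inbred strains, derived from F344/Stm and LE/Stm, and 25 other inbred strains, a class that includes the progenitors. The study describes young adult males, cut the brain along the midline and used 1 side, and received brain tissue of the HXB/BXH panel and its progenitors, kept in liquid nitrogen, from another source than the vendors of the classic strains, whose brains went into RNAlater, so that panel, source and preservation cannot be told apart. The RefSeq libraries come from 17 sequencing batches. By their labels the HXB/BXH and the FXLE/LEXF strains share no batch, and F344/Stm and LE/Stm share none with the FXLE/LEXF strains. Batch thus cannot be told apart from family, nor from the difference between F344/Stm or LE/Stm and their recombinant strains. A recombinant inbred strain is a fixed mosaic of its progenitors, so that a locus that differs between them is carried in 1 of 2 forms by each recombinant strain. The first Ensembl table holds 132 animals of 45 strains and the second 165 animals of 58 strains. Most libraries of the 3 tables are the same, so agreement between tables is not an independent repeat.

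All values are on the authors' log2 scale, and 1 value was used per animal. The deposited values carry no read counts, so the depth behind each is unknown, and they are not divided by gene length, so that levels are compared between strains and never between genes. The library medians of the RefSeq table ran from 8.18 to 8.42. The neuron markers Rbfox3, Snap25 and Syt1 averaged 13.99 to 14.27 over the strains. The Y-linked gene Kdm5d was between 9.32 and 9.64 in 4 libraries, all 3 labelled LEW/Crl and animal 2 of HXB17/Ipcv, and between 10.21 and 11.39 in the other 210. The libraries labelled F344/NCrl 2 and SHRSP/A3NCrl 1 in the first Ensembl table were each other's closest match (r = 0.851 across genes), closer than either was to its own strain. The single LE/Stm animal of the RefSeq table averaged 18.67 over the liver genes Alb, Apoa1 and Serpina1, against at most 10.73 in any other strain.

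Every one of the 10 genes differed between strains in the RefSeq table. In a limma F-test with Benjamini-Hochberg adjustment over all features, 10 of 10 were called at an adjusted p under 0.05 in the RefSeq table, where 37.3% of all features were called. The share of the total sum of squares that lay between strains (R2) had a median of 0.629 over the 10 genes and 0.451 over all features. The SD of the strain means had a median of 0.207 over the 10 genes and 0.123 over all features. The first Ensembl table called 7 of 8 genes, where 63.6% of all features were. Tap2 was the exception there, with an adjusted p of 0.0861, and it was called with batch as a covariate (0.0413) and with the replicate block (0.0465). It was not called in the second Ensembl table (adjusted p = 0.247). In the first Ensembl table B2m lost its call without the animals numbered 2 or 3 (0.182 and 0.296), and Psmb10 without those numbered 3 (0.0951). When the animals of 1 number were left out of every strain in the RefSeq table, RT1-A2, RT1-S3, RT1-N3, Tap1, Tapbp and Psmb8 were called each time. B2m was not called without the animals numbered 2 or 3 (adjusted p = 0.141 and 0.200), Tap2 without those numbered 1 or 3 (0.308 and 0.188), Psmb9 without those numbered 2 (0.232) and Psmb10 without those numbered 1 or 2 (0.549 and 0.424).

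The heavy chains RT1-A2 and RT1-S3 had the highest R2 and the highest SD of the strain means of the 10 genes. RT1-A2 had an R2 of 0.825 (adjusted p = 1.08e-22), and its strain means ran from 7.98 in BXH12/Cub through a median of 9.15 to 9.91 in LE/Stm. RT1-S3 had an R2 of 0.814 (adjusted p = 4.22e-21), from 8.36 in BDIX/NemOdaMcwi through 9.07 to 9.67 in PVG/Seac. The third heavy chain, RT1-N3, was called as well and covered a narrower range. Its strain means ran from 5.89 in LEXF2B/Stm, a single animal, through 6.17 to 6.71 in WKY/NCrl (R2 0.696, adjusted p = 2.75e-10). The light chain B2m, whose gene lies outside the MHC, ran from 12.63 in HXB1/Ipcv through 12.96 to 13.51 in BUF/MnaMcwi (R2 0.512, adjusted p = 0.00900).

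Genes of peptide transport and loading were called as well. Tap1 had an R2 of 0.695 (adjusted p = 1.96e-10), with 6.30 in BUF/MnaMcwi, a median of 6.87 and 7.49 in HXB17/Ipcv. Tapbp had an R2 of 0.610 (adjusted p = 7.63e-06), from 9.08 in BUF/MnaMcwi through 9.42 to 9.86 in HXB2/Ipcv. Tap2, the other subunit of the transporter, was called with a lower R2 of 0.504 (adjusted p = 0.0108), between 6.72 in FXLE13/Stm and 8.09 in LE/Stm. Its spread between animals of a strain, an SD of 0.278, was the widest of the 10 genes, against a median of 0.162 over all features. FXLE13/Stm, LE/Stm and BUF/MnaMcwi are represented by 1 animal each.

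Of the immunoproteasome subunits, Psmb8 varied most. Psmb8 ran from 6.44 in FHH/EurMcwi through 6.88 to 7.60 in BUF/MnaMcwi (R2 0.647, adjusted p = 1.16e-07). Psmb9 ran from 5.80 in FXLE13/Stm through 6.21 to 6.64 in HXB2/Ipcv (R2 0.566, adjusted p = 2.55e-04). Psmb10 ran from 7.90 in FXLE13/Stm through 8.53 to 9.01 in BUF/MnaMcwi (R2 0.482, adjusted p = 0.0327). The constitutive subunits that these replace did not pass the test in the same table, with adjusted p of 0.793 for Psmb5, 0.0790 for Psmb6 and 0.0594 for Psmb7. Psmb6 passed in the first Ensembl table (R2 0.849), with strain means between 8.72 and 10.38, while Psmb5 and Psmb7 did not.

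**Figure D1:**
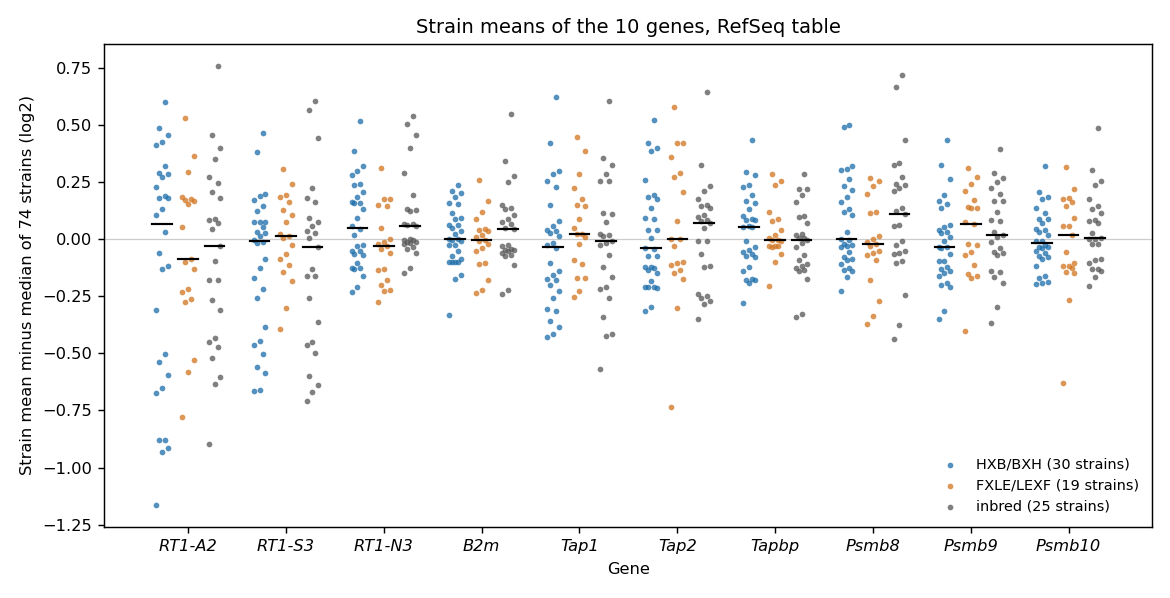
Strain means of the 10 genes in the RefSeq table, each point 1 strain, as the difference from that gene's median over 74 strains (log2, y axis), in columns for the 30 HXB/BXH, 19 FXLE/LEXF and 25 other inbred strains, with a bar at each column's median. RT1-A2 spans the widest range (1.92), followed by Tap2 (1.38) and RT1-S3 (1.31), and the single low point of Psmb10 among the FXLE/LEXF strains is FXLE13/Stm at 7.90.

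Within the HXB/BXH family RT1-A2 fell into 2 groups of strains. In the first Ensembl table the BN-Lx/Cub animals were at 9.17, 9.27 and 9.28 and the SHR/OlaIpcv animals at 8.13, 8.08 and 8.20. BN-Lx/Cub was higher by 1.11 ± 0.163 (SE, n = 3 and 3; adjusted p = 3.20e-07 by limma), in a comparison that called 4.37% of all features, 2.38% as higher and 2% as lower in BN-Lx/Cub. Of the 30 recombinant strains 19 were nearer to BN-Lx/Cub and 11 nearer to SHR/OlaIpcv, with a gap of 0.692 between 8.61 and 9.30 and no other gap over 0.165. The 56 animals of the strains on the BN-Lx/Cub side lay between 9.21 and 10.39 and the 32 animals on the other side between 7.75 and 8.70, so that single animals did not overlap. All 19 strains on the upper side had means above that of BN-Lx/Cub itself.

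A normal mixture chosen by the Bayesian information criterion (BIC) gave 2 clusters of the HXB/BXH strain means, 11 at 8.20 and 19 at 9.55, with a gain of 38.4 over 1 cluster. In the RefSeq table the mixture gave 11 strains at 8.40 and 19 at 9.36, with a gain of 7.21, and the 11 low strains were the same in both tables. They were BXH2/Cub, BXH5/Cub, BXH6/Cub, BXH11/Cub, BXH12/Cub, HXB2/Ipcv, HXB3/Ipcv, HXB5/Ipcv, HXB15/Ipcv, HXB21/Ipcv and HXB31/Ipcv. More than 1 cluster within HXB/BXH was found for 11.7% of all features of the RefSeq table, and of the 10 genes 2 did, RT1-A2 and RT1-S3. The strain effect on RT1-A2 within the family had an R2 of 0.950 in the first Ensembl table (adjusted p = 5.00e-34) and 0.906 in the RefSeq table (adjusted p = 8.76e-24).

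**Figure D2:**
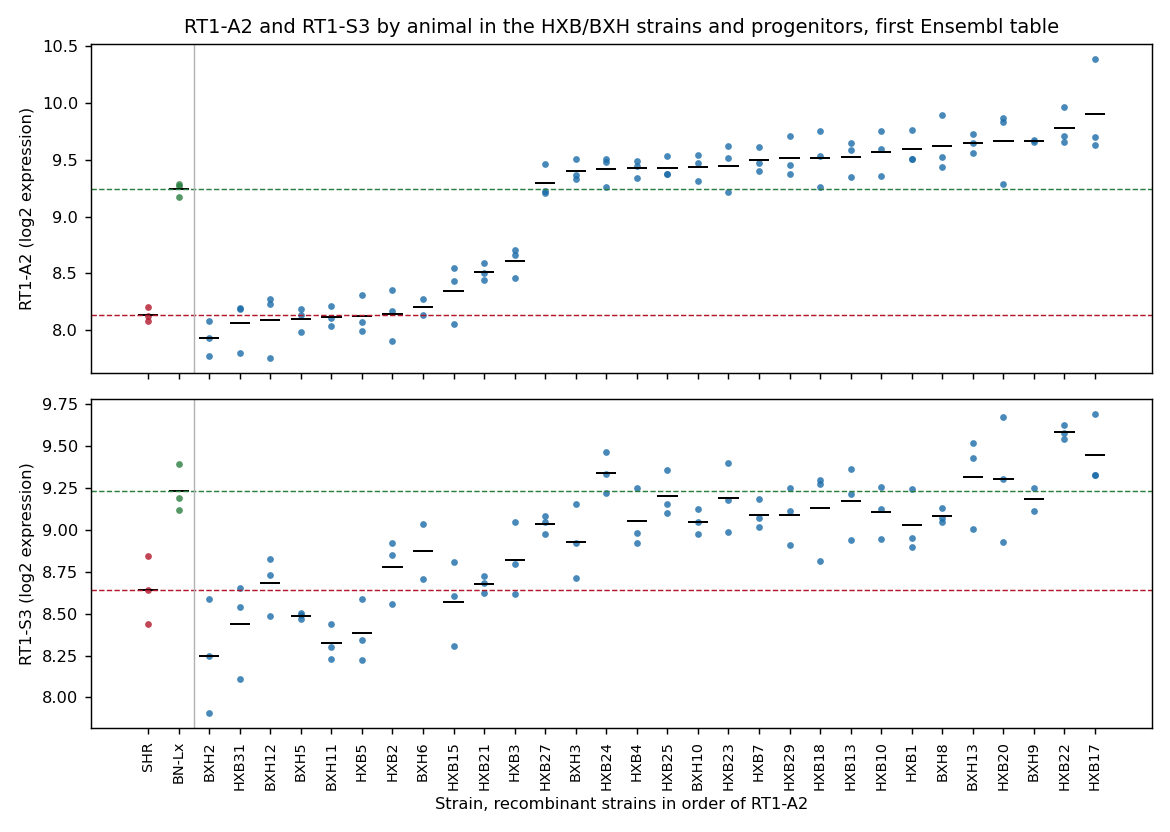
RT1-A2 (upper panel) and RT1-S3 (lower panel) in the first Ensembl table, on the authors' log2 scale, with 1 point per animal and a bar at each mean, for the progenitors SHR/OlaIpcv and BN-Lx/Cub (dashed lines at their means) and the 30 HXB/BXH strains in order of RT1-A2. RT1-A2 steps from 8.61 to 9.30 between the 11th and the 12th strain, and RT1-S3 rises in the same order without a step of that size.

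The direction of the RT1-A2 difference was not the same in the 3 tables. In the second Ensembl table, under the same Ensembl identifier, the BN-Lx/Cub animals were at 5.81, 6.15 and 5.99 and the SHR/OlaIpcv animals at 7.00, 6.46 and 6.63. There BN-Lx/Cub was lower, by -0.714 ± 0.194 (SE, n = 3 and 3; adjusted p = 0.0217 by limma). The 11 strains lowest in the first Ensembl table were the 11 highest in the second, with 6.64 as the highest of the other 19 and 6.73 as the lowest of these 11. The same 11 were the 11 lowest in the RefSeq table, with 8.84 as their highest mean and 9.02 as the lowest of the others. By rank the same 11 strains lay at 1 end in all 3 tables, with opposite signs. Only in the first Ensembl table did the largest gap fall between these 11 and the others. In the RefSeq table it was 0.231, above BXH12/Cub alone. In the second Ensembl table it was 0.191, from 6.73 to 6.92, inside the 11. By the midpoint of the progenitors 24 of 30 strains were nearer to the same progenitor in both Ensembl tables. The heavy-chain genes of RT1 are near-identical copies that can share reads, so the level of any single one is uncertain, and the cause of the change of sign was not tested.

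**Figure D3:**
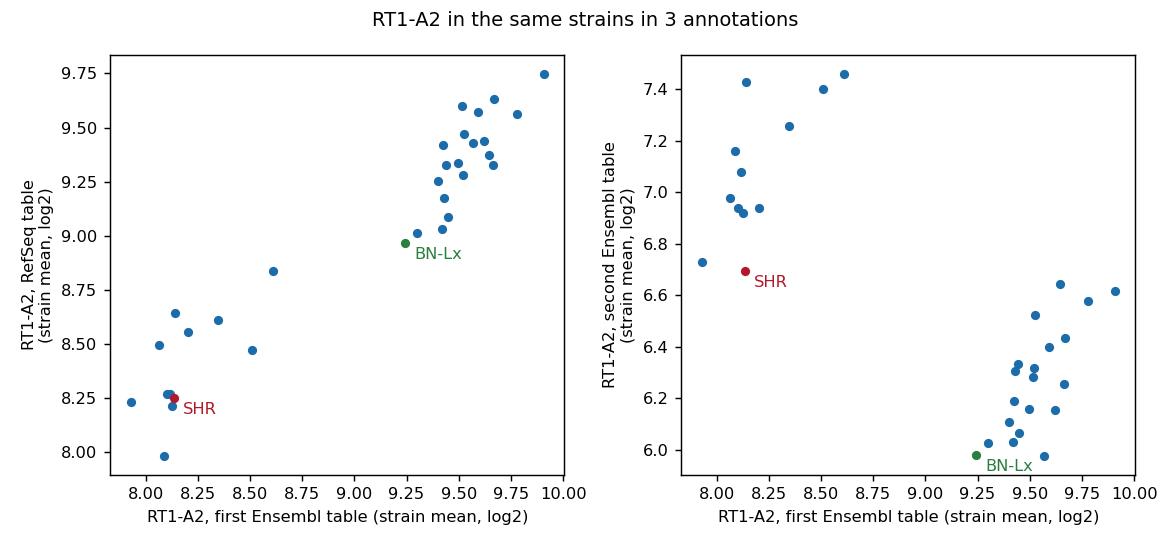
RT1-A2 strain means (log2) of the 30 HXB/BXH strains and the 2 progenitors in the first Ensembl table (x axis) against the RefSeq table (left, y axis) and the second Ensembl table (right, y axis). The 11 strains at or below 8.61 on the x axis are the lowest on the left and the highest on the right, and SHR/OlaIpcv lies at 8.25 on the left and 6.70 on the right.

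The RefSeq table gave the same sign as the first Ensembl table with less certainty. Here BN-Lx/Cub is 3 animals, at 8.72, 9.14 and 9.04, and SHR/OlaIpcv is 2 animals, at 8.29 and 8.21, whose 18 libraries were averaged. The difference was 0.716 ± 0.224 (SE, n = 3 and 2; adjusted p = 0.0421 by limma), and the groups did not overlap. SHR/OlaIpcv had the highest red blood cell marker level of all 74 strains, 13.32 against 12.04 in BN-Lx/Cub, and was above BN-Lx/Cub for choroid plexus (10.62 and 10.19), the interferon response (7.70 and 7.43) and liver (8.59 and 7.90). Their part in the progenitor differences was not tested. RT1-A2 was the 1 gene of 10 called in this comparison, where 4.51% of all features were called, 2.63% as higher and 1.87% as lower in BN-Lx/Cub. The difference was 0.0484 ± 0.314 (SE) with 1 library per animal and batch as a covariate (adjusted p = 0.935). That fit leaves out most of the 18 SHR/OlaIpcv libraries, and its error is wide. With 1 library per animal alone the difference was 0.538 ± 0.226 (adjusted p = 0.255). It was not called without BN-Lx/Cub animal 2 (0.628, adjusted p = 0.0858) or 3 (0.680, adjusted p = 0.0874), nor without SHR/OlaIpcv animal 1 (0.759, adjusted p = 0.207) or 4 (0.673, adjusted p = 0.362). By the midpoint of the progenitors 22 recombinant strains were nearer to BN-Lx/Cub and 8 to SHR/OlaIpcv, and 27 of 30 strains lay on the same side as in the first Ensembl table. The 64 animals on the BN-Lx/Cub side lay between 8.47 and 9.96 and the 24 on the other side between 7.72 and 8.92. Single animals thus overlapped here, unlike in the first Ensembl table.

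RT1-A1, a neighbouring heavy-chain gene picked for comparison after its values were seen, went the other way in the RefSeq table. It averaged 8.96 in BN-Lx/Cub and 10.43 in SHR/OlaIpcv, a difference of -1.47 ± 0.292 (SE; adjusted p = 2.33e-04 by limma). The differences were -0.13 in the first Ensembl table (adjusted p = 0.763) and -0.27 in the second (adjusted p = 0.764).

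RT1-S3 was higher in BN-Lx/Cub in the first Ensembl table. The BN-Lx/Cub animals were at 9.12, 9.39 and 9.19 and the SHR/OlaIpcv animals at 8.85, 8.64 and 8.44. The groups did not overlap and BN-Lx/Cub was higher by 0.589 ± 0.157 (SE, n = 3 and 3; adjusted p = 0.0125 by limma). The call was lost without BN-Lx/Cub animal 2 (0.510, adjusted p = 0.0877) or SHR/OlaIpcv animal 3 (0.488, adjusted p = 0.0933). The difference was 0.351 ± 0.163 in the RefSeq table (adjusted p = 0.212) and 0.369 ± 0.151 in the second Ensembl table (adjusted p = 0.294), neither of them called. With 1 library per animal and batch as a covariate the RefSeq value was -0.0967 ± 0.211. So for RT1-S3, unlike RT1-A2, the 3 tables gave 1 sign without that covariate.

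Of the 30 HXB/BXH strains 18 were nearer to BN-Lx/Cub for RT1-S3 and 12 nearer to SHR/OlaIpcv in the first Ensembl table. On that rule 29 of 30 strains lay on the same side for RT1-S3 as for RT1-A2, and the exception was BXH3/Cub. The mixture in the RefSeq table put 9 strains at 8.57 and 21 at 9.13, and all 9 were among the 11 low strains of RT1-A2. The gain of the second cluster was 0.81 there, and a single cluster was left without the animals numbered 2 or those numbered 3. The mixture in the first Ensembl table gave a single cluster for RT1-S3, with a gain of -0.64 for a second. The 2 genes were also correlated inside each RT1-A2 cluster. Over the 11 low strains of the RefSeq table Pearson's r was 0.830 (permutation p = 0.00137; Spearman's rho 0.800, permutation p = 0.00436), and over the 19 high strains it was 0.654 (permutation p = 0.00204; rho 0.632, permutation p = 0.00451). Without the 2 strains farthest from the median of RT1-A2 these became 0.824 and 0.452, and with batch-adjusted means 0.867 and 0.718. In the first Ensembl table r was 0.607 over the 11 low strains (permutation p = 0.0473; rho 0.636, permutation p = 0.0398) and 0.684 over the 19 high strains (permutation p = 0.00157; rho 0.519, permutation p = 0.0239), and 0.521 and 0.381 without the 2 farthest strains. Of these 4 values of r the one with p of 0.0473 has the largest p, which a Benjamini-Hochberg adjustment over the 4 leaves as it is.

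None of the other genes was called between BN-Lx/Cub and SHR/OlaIpcv in any of the 3 tables. In the RefSeq table the 9 that were not called had differences from -0.368 for Tapbp to 0.351 for RT1-S3. Tapbp was at 8.98, 9.47 and 9.29 in BN-Lx/Cub and at 9.57 and 9.66 in SHR/OlaIpcv, without overlap (adjusted p = 0.108), and without BN-Lx/Cub animal 2 it was called (adjusted p = 0.0317). Tap1 was higher in BN-Lx/Cub by 0.371 ± 0.136 in the first Ensembl table (adjusted p = 0.111) and by 0.0983 ± 0.182 in the RefSeq table (adjusted p = 0.816). Tap1 was called in the first Ensembl table without BN-Lx/Cub animal 1 (adjusted p = 0.0273) or without SHR/OlaIpcv animal 1 (adjusted p = 0.00658). The difference in B2m had a 95% interval from -0.289 to 0.289 in the first Ensembl table and from -0.0981 to 0.507 in the RefSeq table. The median difference of the 10 genes was -0.0427, against -0.0211 over all features.

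**Figure D4:**
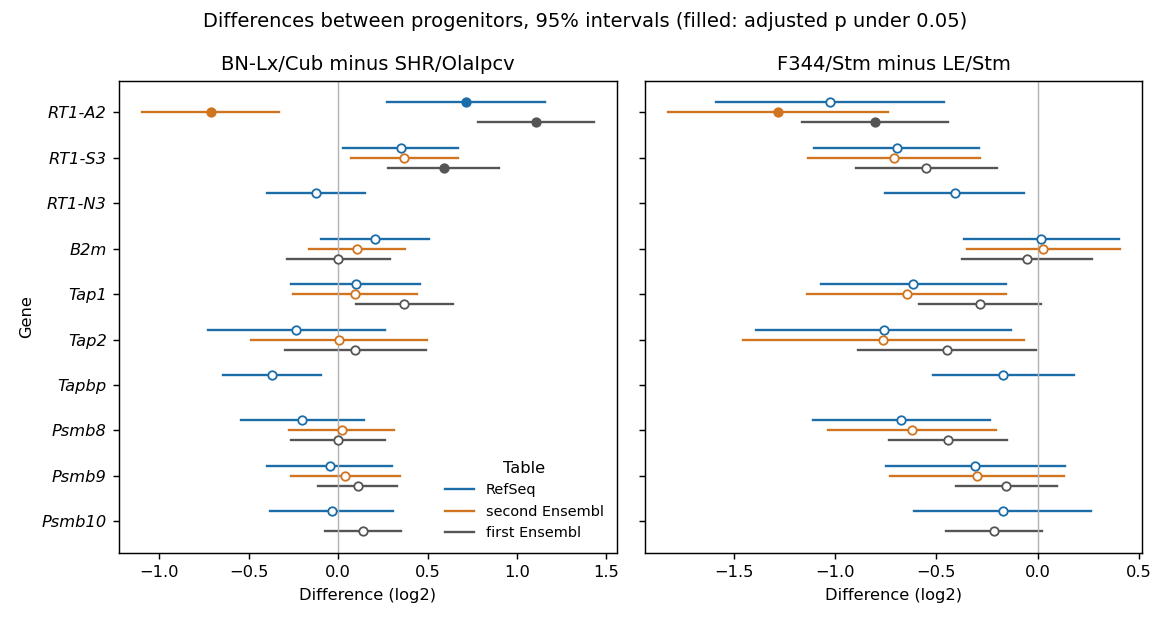
Differences between progenitors (log2, x axis) with 95% intervals for each gene in the RefSeq, second Ensembl and first Ensembl tables, BN-Lx/Cub minus SHR/OlaIpcv on the left and F344/Stm minus LE/Stm on the right, with filled points where the adjusted p is under 0.05. For BN-Lx/Cub minus SHR/OlaIpcv the RT1-A2 intervals lie above 0 in 2 tables and below 0 in the second Ensembl table, and on the right nearly all points lie below 0, with LE/Stm a single animal in 2 of the 3 tables. For these 2 tables the error of LE/Stm on the right comes from the spread within other strains.

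Within HXB/BXH 8 of the 10 were called in the RefSeq table, where 26.5% of all features were, and 4 of 8 in the first Ensembl table, where 17.5% were. Called in both were RT1-A2, RT1-S3, Tap1 and Psmb8. With the animals of 1 number left out in the RefSeq table, RT1-A2, RT1-S3, RT1-N3 and Tap1 were called each time, while Tap2 (highest adjusted p = 0.425), Psmb8 (0.121), Psmb9 (0.260) and Tapbp (0.0568) were not. Psmb8 was called in none of these fits in the first Ensembl table (adjusted p from 0.0552 to 0.496). Tap2 also lost its call in the RefSeq table with the replicate block (adjusted p = 0.0557) and with 1 library per animal (0.0543). Tap1 ran from 6.44 in BXH2/Cub through 6.83 to 7.49 in HXB17/Ipcv in the RefSeq table (adjusted p = 3.82e-09). The 3 animals of HXB17/Ipcv were at 7.22, 7.30 and 7.94, with the animal of low Kdm5d at 7.30 and 1 other well above. RT1-N3 ran from 5.93 in BXH11/Cub through 6.22 to 6.68 in HXB22/Ipcv (adjusted p = 1.63e-08), and Tapbp from 9.14 in HXB25/Ipcv through 9.48 to 9.86 in HXB2/Ipcv (adjusted p = 1.24e-05).

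HXB2/Ipcv had the highest mean of the family for Tap2, Tapbp, Psmb8, Psmb9 and Psmb10 in the RefSeq table. Its 2 animals were at 7.38 and 7.39 for Psmb8 and at 6.65 and 6.62 for Psmb9. For Psmb8 the family ran from 6.65 in HXB27/Ipcv through 6.88 to 7.38 (adjusted p = 2.64e-04), and for Psmb9 from 5.86 in HXB27/Ipcv through 6.17 to 6.64 (adjusted p = 0.00353). HXB27/Ipcv also had the lowest interferon response and T cell marker levels of all strains, 6.87 and 3.27 against medians of 7.31 and 3.48. Their part in its low values was not tested. HXB3/Ipcv was highest in the first Ensembl table, at 7.49 for Psmb8 and 6.41 for Psmb9. That table holds 3 animals of HXB2/Ipcv, which were at 7.00, 7.58 and 7.85 for Tap2, with a mean of 7.48 near the family median of 7.49, and HXB15/Ipcv was highest for Tap2 at 7.84. HXB2/Ipcv was the highest for Psmb10 there too, at 8.74. The genes that were not called within the family in the RefSeq table were B2m (adjusted p = 0.0587) and Psmb10 (adjusted p = 0.305), both of which lie outside the MHC. Psmb10 was called with 1 library per animal and batch as a covariate (adjusted p = 0.0339). In the first Ensembl table the MHC genes Tap2 (adjusted p = 0.738) and Psmb9 (0.217) were not called within the family either.

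Within the FXLE/LEXF family RT1-A2 alone was called, 1 of 10 genes, where 7.47% of all features were. Its strain means ran from 8.37 in LEXF1A/Stm through a median of 9.06 to 9.68 in LEXF5/Stm (R2 0.717, adjusted p = 2.97e-04). The call was lost without the animals numbered 2 (adjusted p = 0.258). The other 9 genes had adjusted p from 0.0568 for Tap2 to 0.475 for B2m in a family in which many strains have 1 or 2 animals. Tap2 was called with 1 library per animal and batch as a covariate (adjusted p = 0.0299). RT1-N3 (0.0367) and Psmb10 (0.0331) were called with the replicate block. LEXF5/Stm had the highest mean of the family for RT1-A2, RT1-S3, Tap1 and Tap2 and the lowest for B2m. FXLE13/Stm, a single animal, had the lowest for RT1-S3, Tap2, Psmb9 and Psmb10, and it also had the lowest microglia and endothelium marker levels of all 74 strains, 8.82 and 9.92 against medians of 9.09 and 10.11. Their part in its low values was not tested.

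RT1-A2 was higher in LE/Stm than in F344/Stm in the first Ensembl table. The F344/Stm animals were at 9.21, 9.38 and 9.19 and the LE/Stm animals at 9.98 and 10.13, and the difference of F344/Stm from LE/Stm was -0.802 ± 0.182 (SE, n = 3 and 2; adjusted p = 0.00216 by limma). RT1-A2 was 1 of 8 genes called, where 3.69% of all features were, 0.907% as higher and 2.79% as lower in F344/Stm. Without the second of the 2 LE/Stm animals (numbered 3 in its label) the difference was -0.727 (adjusted p = 0.0816). Psmb8 differed by -0.444 in that table (adjusted p = 0.0728) and by 0.0223 without the same animal. In the second Ensembl table the F344/Stm animals were at 6.15, 6.30 and 6.15 and the LE/Stm animal at 7.49 for RT1-A2, a difference of -1.28, given here by its size alone. LE/Stm is 1 animal in this table and in the RefSeq table, so that its own spread is not measured in either.

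In the RefSeq table the single LE/Stm animal was at 9.91 for RT1-A2 and the F344/Stm animals at 9.00, 8.71 and 8.93. The difference was -1.03 (n = 3 and 1), in a fit whose error for LE/Stm comes from the spread within other strains. The libraries of both strains carry the same batch number, so a batch covariate could not change this difference. None of the 10 genes was called there, where 0.796% of all features were, 0.134% as higher and 0.662% as lower in F344/Stm. The LE/Stm animal lay outside the range of the F344/Stm animals for 9 of 10 genes, above it in each case, as it did for 34.8% of all features. The median difference of the 10 genes was -0.511, against -0.0204 over all features, of which 52.7% were below 0. All 8 genes of the first Ensembl table were below 0 there, as were 51.6% of all features. This animal had the high liver marker level given above, a choroid plexus marker level of 10.91 that was the highest of all strains, and the highest T cell marker level, 3.81 against a median of 3.48. It was above F344/Stm for microglia (9.34 and 9.15), the interferon response (7.64 and 7.25) and endothelium (10.20 and 10.08). It was below F344/Stm for red blood cells (11.87 and 12.07) and neurons (13.99 and 14.15). Their part in the result was not tested. RT1-A2 in the second Ensembl table divided the 5 FXLE/LEXF strains measured there into 4 nearer to F344/Stm, between 6.12 and 6.37, and LEXF10A/Stm at 7.29. The animals of LEXF10A/Stm in the RefSeq table were at 9.43, 9.22 and 9.29, inside the range of the family.

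Among the 25 other inbred strains 8 of 10 genes were called, where 23.2% of all features were, and Tap2 (adjusted p = 0.250) and Psmb10 (adjusted p = 0.131) were not. Without the animals of 1 number B2m (adjusted p up to 0.133), RT1-N3 (0.212), Tapbp (0.165) and Psmb9 (0.352) lost their calls, and RT1-A2, RT1-S3, Tap1 and Psmb8 did not. RT1-S3 had an R2 of 0.883 within this class (adjusted p = 1.62e-17). The 3 animals of PVG/Seac were highest, at 9.70, 9.64 and 9.66, and the 3 of MWF/Hsd were at 8.37, 8.48 and 8.34, with no overlap. RT1-A2 ran from 8.25 in SHR/OlaIpcv to 9.91 in LE/Stm (adjusted p = 2.90e-10). Some strains were low for RT1-S3 and not for RT1-A2. BDIX/NemOdaMcwi was lowest of all for RT1-S3, with animals at 8.61 and 8.11, and above the class median of 9.12 for RT1-A2, with animals at 9.52 and 9.19. MWF/Hsd was at 9.14, 9.33 and 9.18 for RT1-A2.

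Closely related strains could be set side by side. The 2 animals of the stroke-prone SHRSP/A3NCrl were at 9.01 and 8.02 for RT1-A2, 1 above and 1 below the SHR/OlaIpcv animals, and were at 8.82 and 8.31 for RT1-S3. In the first Ensembl table the library labelled SHRSP/A3NCrl 1, whose closest match was F344/NCrl 2, was at 8.67 for RT1-A2. The other 2 SHRSP/A3NCrl animals there were at 8.08 and 8.23, so the spread given for this strain may include a doubted label. The 3 F344 substrains averaged 8.63 (F344/NHsd), 8.88 (F344/Stm) and 8.97 (F344/NCrl) for RT1-A2 and 9.07, 8.93 and 9.23 for RT1-S3, and the F344/Stm animals overlapped those of both other substrains for RT1-A2. BN-Lx/Cub and BN/NHsdMcwi averaged 8.97 and 9.05 for RT1-A2. Psmb8 was highest in BUF/MnaMcwi (7.60) and LE/Stm (7.55), both single animals, followed by GK/FarMcwi with 7.34, 7.31 and 7.30. It was lowest in FHH/EurMcwi, with 6.60, 6.42 and 6.30, and these did not overlap those of GK/FarMcwi. BUF/MnaMcwi and LE/Stm also had the 2 highest microglia marker levels of all strains, 9.35 and 9.34 against a median of 9.09. The part of these levels was not tested. RT1-N3 had 2 clusters in this class, 20 strains at 6.19 and 5 at 6.61, with a BIC gain of 8.61. The share of all features with more than 1 cluster was not computed for this class, and its clusters were not refitted without animals. Psmb8 had 3 clusters among the 15 inbred strains of the first Ensembl table, at 6.84, 7.13 and 7.23, with a gain of 2.23 for the third. The SD of strain means inside these clusters was 0.0226, against an SD of 0.162 between animals of a strain. These clusters were not refitted without animals either, and no share of all features was computed for them.

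Some pairs of the proteasome, transport and loading genes were correlated across the HXB/BXH strains. Of the 28 pairs among the 8 genes that formed 1 cluster, 10 had a Benjamini-Hochberg adjusted permutation p under 0.05, and all 10 correlations were positive. Their lowest r was 0.515, a value reached by 4.46% of all pairs of features. Of the 15 pairs among Tap1, Tap2, Tapbp, Psmb8, Psmb9 and Psmb10, 9 were called and 6 were not, among them Tap1 with Tap2 (r = 0.262) and Tap1 with Tapbp (r = 0.0748). For 3 of them, Psmb8 and Psmb9 with Tapbp and Psmb8 with Tap2, the adjusted p of Spearman's rho was 0.0647 or more. The strongest was Psmb8 with Psmb9, with Pearson's r of 0.872 and Spearman's rho of 0.818 over 30 strains (permutation p = 1.00e-05 for each, the lowest value possible with 100000 permutations; adjusted p of r 7.00e-05). It was 0.804 without the 2 farthest strains and 0.904 with batch-adjusted means, and 0.754 over the FXLE/LEXF strains and 0.396 over the other inbred strains. Psmb8 with Psmb10 gave r of 0.762 and rho of 0.753, and Psmb10 is not in the MHC. Tap2 with Tapbp gave r of 0.761 and rho of 0.722, and Tap2 with Psmb9 gave r of 0.623 and rho of 0.544. Without the 2 farthest strains these were 0.648, 0.677 and 0.489.

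RT1-N3 with Tap1 was the second strongest pair in HXB/BXH, with values near 0 in the inbred strains. Over the 30 HXB/BXH strains r was 0.785 and rho 0.817 (each permutation p = 1.00e-05; adjusted p of r 7.00e-05), and r was 0.744 without the 2 farthest strains and 0.809 with batch-adjusted means. It was 0.192 over the 19 FXLE/LEXF strains and -0.0377 over the 25 other inbred strains. The difference between the panels was not tested. On the reference both genes lie on chromosome 20, in the order RT1-N3, RT1-S3, Tap2, Psmb8, Tap1, Psmb9, RT1-A2 and Tapbp, while B2m is on chromosome 3 and Psmb10 on chromosome 19.

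**Figure D5:**
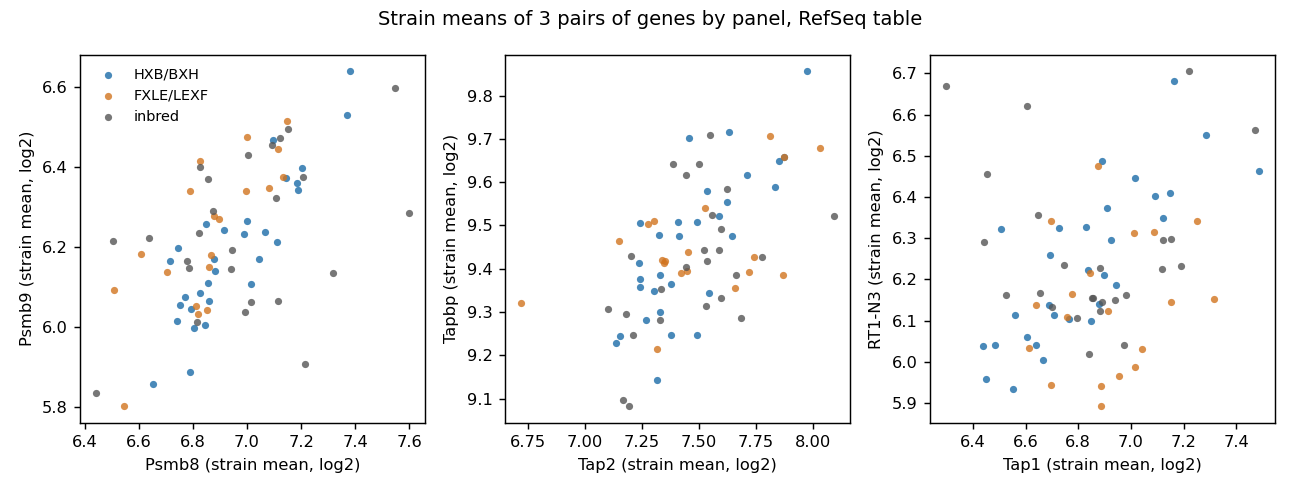
Strain means (log2) of Psmb8 against Psmb9, Tap2 against Tapbp, and Tap1 against RT1-N3 in the RefSeq table, with 1 point per strain coloured by panel. Within HXB/BXH (r = 0.872, 0.761 and 0.785) each pair rises together, while Tap1 and RT1-N3 show no such rise over the other inbred strains (r = -0.0377).

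Genes of this pathway are known to be switched on by interferon through a short promoter element, the interferon-stimulated response element (ISRE), and the promoters are shown because several of these genes moved together. The windows are the 300 bases around each start in RefSeq (build GRCr8), most of them before it, and 10 of 10 genes were matched. The core searched was GAAA, any 2 bases and GAAA again, on both strands, and it was present in 8 of 10 genes and in 3.92% of all 33469 windows. A match is a description and not a site of binding. Each line below gives 30 bases along the strand of the gene with the core in capitals, which begins and ends with TTTC where it lies on the opposite strand.
B2m (chr3:129549170-129549199): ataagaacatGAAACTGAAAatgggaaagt
RT1-N3 (chr20:2666272-2666301): tgtgcttcagTTTCACTTTCcagtccctaa
RT1-S3 (chr20:2675406-2675435): ctcctgctgcTTTCTCTTTCataaagacac
Tap1 (chr20:4668645-4668674): cggtggctgcTTTCGGTTTCttcttcctct
Tap2 (chr20:4652318-4652347): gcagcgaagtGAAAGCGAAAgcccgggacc
Tapbp (chr20:4967878-4967907): gagggaaaatGAAAGTGAAAggaaacagac
Psmb8 (chr20:4657016-4657045): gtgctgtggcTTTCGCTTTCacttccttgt
Psmb10 (chr19:50743346-50743375): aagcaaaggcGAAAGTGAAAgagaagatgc

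RT1-A2 and Psmb9 had no such core in their windows. Tapbp and Psmb10 each had a second match. The NF-kB motif, searched by its name on both strands, was in 4 of 10 genes (B2m, RT1-A2, Tap1 and Tapbp) and in 6.15% of all windows. In RT1-A2 it matched on both strands, and its site is shown because RT1-A2 is the gene with the widest strain differences, as chr20:4872687-4872716 in gggcggggctGGGGATTCCCcatcgcccag. The gamma-activated sequence TTCNNNGAA was in 1 of 10 genes, Psmb8, and in 8.87% of all windows, and CCAAT was in 6 of 10 and in 37.5%. Tap1 and Psmb9 are read in opposite directions from starts 457 bases apart, so that their windows share 44 bases. Their strain means in HXB/BXH had r of 0.528 and rho of 0.555 (adjusted permutation p of r 0.00946).

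Relations of 8 of the genes to 8 marker lists were computed across the 74 strains. Of these 64 relations 20 had an adjusted permutation p under 0.05, the weakest with r of 0.283. An r of at least that size, of either sign, was reached in 12.6% of the pairings of all features with the 8 lists. For the interferon response 5 of 8 genes were called, where 2.99% of all features reached that r, and for microglia 6 of 8, where 23.5% did. All 12 microglia markers and all 10 interferon response markers differed between strains, and the mean of the first ran from 8.82 to 9.35 and of the second from 6.87 to 7.91. Psmb10 with microglia gave r of 0.623 and rho of 0.582, Psmb8 with the interferon response gave 0.606 and 0.565, Psmb9 with microglia gave 0.578 and 0.589, and B2m with the interferon response gave 0.570 and 0.512 (each adjusted p of r 1.60e-04). With batch-adjusted means these r were 0.406, 0.584, 0.598 and 0.446, and without the 2 strains farthest from the median they were 0.537, 0.594, 0.552 and 0.539. For 5 of the 20 relations the batch-adjusted r was under 0.1 or of the other sign. B2m with microglia went from 0.410 to 0.0848, Psmb8 with microglia from 0.368 to 0.0449, Tapbp with endothelium from 0.373 to -0.316, Tap2 with endothelium from 0.339 to -0.196 and Tapbp with choroid plexus from 0.435 to -0.142. Of the T cell markers 2 of 5 were measured, with a mean from 3.27 to 3.81. What part these cells and signals have in the strain differences was not tested.

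The genes whose strain means were most like those of each member over all 74 strains often lay on chromosome 20 as well. For RT1-A2 they were RT1-S3 (r = 0.744) and RT1-T24-4 (0.721), and for RT1-S3 they were RT1-T24-4 (0.790) and RT1-A2. For RT1-N3 they were RT1-N2 (0.593) and Parp14 on chromosome 11 (0.519). For Tap1 they were the complement gene C4a (0.756) and Wdr46 (0.743), and for Tap2 they were Lamb2 on chromosome 8 (0.780) and Slc39a7 (0.776). For Psmb9 they were Tap2 (0.684) and RT1-CE5 (0.684). The remaining members had their closest genes mostly elsewhere. Psmb8 was most like the interferon-induced Ifi35 (0.647) and Psmb10 (0.634), and Tapbp most like Stat3 (0.726) and Psap (0.715), of which Psap is on chromosome 20. B2m was most like the ribosomal protein gene Rps3a (0.728) and Trim5 (0.725), and Psmb10 most like the ribosomal protein genes Rplp0 (0.853) and Rps19l2 (0.827). These values describe the strain means, which share batches and depth.

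The other heavy-chain genes of RT1 differed between strains as well. All 24 that were measured were called over all strains, where 37.3% of all features were, and 21 within HXB/BXH, where 26.5% were. The HXB/BXH progenitors differed for 10 of them in the RefSeq table, where the comparison called 4.51% of all features, 6 as higher (2.63% of all features) and 4 as lower (1.87%) in BN-Lx/Cub. Their median R2 was 0.794. RT1-T24-4, the gene most like RT1-S3, was higher in BN-Lx/Cub by 1.43 ± 0.180 (adjusted p = 7.50e-10 by limma). RT1-T24-3 had the widest spread, from 5.00 in BN/NHsdMcwi to 8.48 in HXB2/Ipcv, and was lower in BN-Lx/Cub by -1.87 ± 0.276 (adjusted p = 1.56e-07 by limma). RT1-CE1 ran from 4.55 in LEXF2B/Stm, a single animal, to 6.80 in HXB21/Ipcv and was also lower in BN-Lx/Cub (-0.950, adjusted p = 0.0365). RT1-A3 was higher in BN-Lx/Cub (0.883, adjusted p = 0.0227), and RT1-CE11 (-0.761, adjusted p = 0.102) and RT1-N2 (-0.0670, adjusted p = 0.923) were not called. HXB2/Ipcv and HXB21/Ipcv, where RT1-T24-3 and RT1-CE1 were highest, were among the 11 strains low for RT1-A2 in the RefSeq table.

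Of 25 other genes of the class I pathway, 10 (40%) were called over all strains, near the 37.3% of all features, and 6 (24%) within HXB/BXH, near the 26.5% of all features. Their median R2 was 0.471, against 0.451 over all features. Nlrc5, the transactivator of class I genes, ran from 5.08 in BXH2/Cub to 6.08 in HXB17/Ipcv (adjusted p = 9.04e-06). The antigen-presenting molecules Mr1 and Cd1d1, the Fc receptor Fcgrt and the chaperone Pdia3 were called as well. Pdia3, a part of the loading complex with tapasin, ran from 11.73 in BN/NHsdMcwi to 12.46 in HXB5/Ipcv (adjusted p = 7.65e-05). Calr, the loading-complex chaperone calreticulin, was the 1 gene of the 25 called between the HXB/BXH progenitors, where 4.51% of all features were, lower in BN-Lx/Cub by -0.304 ± 0.0902 (adjusted p = 0.0289).

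Transcripts of all 10 genes could be followed in the transcript table of the RefSeq version, 14 in all. Of these 10 were called between strains, where 13.9% of 45991 transcripts were, and 7 genes had at least 1. Tap2 (adjusted p = 0.0710), Psmb9 (0.139) and Psmb10 (0.158) had none. RT1-A2 had 2 of its 7 reference transcripts measured. The strain means of NM_001008829.1 ran from 5.98 to 10.22 (adjusted p = 2.92e-18), and those of XM_017601545.2 from -1.72 to 6.00 (adjusted p = 2.31e-07). Both measured transcripts of RT1-S3 were called, at adjusted p of 1.30e-12 and 1.18e-10, and both of Tapbp, at 3.07e-04 and 0.00147.

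In the rn6 annotation of the first Ensembl version, B2m is at chr3:114087287-114106041, Psmb10 at chr19:37905758-37916813, Psmb9 at chr20:3973420-3978845, and Psmb8 at chr20:3990820-3993769. The name Tap1 is given to 2 spans there, chr20:3979035-3989669 and chr20:3995544-4009587, on either side of Psmb8. In the gene order given above Tap2 lies across Psmb8 from Tap1, and no span was found under the name Tap2. Whether the second span is a copy of Tap1 was not tested. The Ensembl identifiers were ENSRNOG00000030712 for RT1-A2, ENSRNOG00000000777 for RT1-S3, ENSRNOG00000000457 for Tap1, ENSRNOG00000000455 for Tap2, ENSRNOG00000000456 for Psmb8, ENSRNOG00000000459 for Psmb9, ENSRNOG00000019494 for Psmb10 and ENSRNOG00000017123 for B2m.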

How the data were processed

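Values were deposited by the authors as log2 expression per gene or transcript, with 232 samples of 74 strains in the series. For the first Ensembl version the study describes adapter trimming with cutadapt 1.9.1, removal of ribosomal reads with Bowtie2 2.3.4.3, alignment with HISAT2 2.1.0 to strain-specific rn6 genomes assembly with StringTie 1.3.5 and quantification with RSEM. The submitters' processing notes list RSEM 1.3.1 and 1.3.3, which are not the version of RSEM that the study gives, and, with no role given, later versions of the other tools (Bowtie2 2.4.5, HISAT2 2.2.1, StringTie 2.2.1). For its reconstruction the authors removed 1 unwanted factor and applied the regularized log of DESeq2. The genome and these steps for the RefSeq and second Ensembl tables are not given in the sources used here. Where unwanted variation was removed before deposit, differences can be smaller or larger than in raw counts.

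Spike-in features were left out (73 of the RefSeq table, 76 of the first Ensembl table). There were 2 columns of the RefSeq table (FXLE12/Stm, LEXF9/Stm) and 1 of the first Ensembl table (SHR/OlaIpcv) whose names fitted 2 samples of their strain. They were assigned to the strain, each as 1 animal, and the last is 1 of the 3 SHR/OlaIpcv animals of the first Ensembl contrasts. Libraries of 1 animal were averaged. Strain effects and progenitor contrasts were fitted with limma 3.58.1 in R 4.3.3 on all features, with Benjamini-Hochberg adjustment and a threshold of 0.05, no filter and no batch term, in fits tested on simulated data. Clusters came from mclust 6.1.1 with equal variance, and correlations from 100000 permutations. Each recombinant strain was assigned to the nearer progenitor mean, and these counts are given only for genes whose progenitor contrast was called. The exception is RT1-A2 in the FXLE/LEXF strains of the second Ensembl table, where LE/Stm is 1 animal and the contrast is given by its size alone. Animals are described as separate biological replicates. The animal numbers do not pair strains, since animals with the same number had a median correlation of deviations of 0.00811, against -0.00677 for other pairs.

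The 10 members and all gene lists were chosen with earlier results of these data known. Named genes were the members, Psmb5, Psmb6 and Psmb7, the 5 called genes with the widest strain means from each of the class I pathway and other RT1 lists, and the 2 genes most like each member. Calr, RT1-A1 and the BN-Lx/Cub difference of RT1-T24-4 were added after their values were seen. Alternatives were 1 library per animal, batch as a covariate, a replicate block, a level filter, a variance trend, values over 30 removed, doubted libraries removed and each animal left out. The authors' tables of strain means were not used.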

Additional observations from a re-analysis of the deposited data

How the results depend on the processing

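The deposited values give no depth, so counting error could not be separated from other error, and LE/Stm could not be left out of the RefSeq contrast because it has 1 animal. With 1 library per animal and batch as a covariate, the RefSeq table called 11973 features over all strains and 7729 among inbred strains. Members called there were 2 within FXLE/LEXF and 0 for BN-Lx/Cub against SHR/OlaIpcv. That BN-Lx/Cub difference became -0.0967 ± 0.211 (SE) for RT1-S3 and -0.196 ± 0.255 for Tap1. The first Ensembl table called 3 members for F344/Stm against LE/Stm. These strains share 1 batch, so the covariate could not change their differences, and that of RT1-S3 stayed at -0.550. With the replicate block, whose numbers do not pair animals, members called were 3 within FXLE/LEXF, 0 for BN-Lx/Cub against SHR/OlaIpcv in the RefSeq table, and 1 (RefSeq) and 2 (first Ensembl) for F344/Stm against LE/Stm. With 1 library per animal alone, BN-Lx/Cub against SHR/OlaIpcv called 0 members and 496 features in the RefSeq table. The first Ensembl table has 1 library per animal throughout. LE/Stm itself counts among the doubted libraries and was kept for its own contrast. Without the other doubted libraries, F344/Stm against LE/Stm called 2 members in the first Ensembl table, with the RT1-S3 difference unchanged at -0.550. Where no count of all features is given for these settings, it stayed near that of the main fit. In the RefSeq table the main fit called 7.47% of all features within FXLE/LEXF and 4.51% for BN-Lx/Cub against SHR/OlaIpcv. In the first Ensembl table it called 3.69% for F344/Stm against LE/Stm.

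Restricting the RefSeq table to features above the median level, which leaves fewer genes to test by construction, called 5 members and 3579 features over all strains, 3 and 2477 within HXB/BXH, 474 features within FXLE/LEXF, 4 members and 1836 features among inbred strains, and 469 and 18 features between the progenitor pairs. The same filter on the first Ensembl table gave 3 members and 6258 features, 2 and 1662 within HXB/BXH, and 196 and 117 features between progenitors. The second Ensembl table called 1 member and 408 features for BN-Lx/Cub against SHR/OlaIpcv, with RT1-A2 reversed at -0.714 and Psmb8 at 0.0192, and 131 features for F344/Stm against LE/Stm, with B2m at 0.0277. The cause of the reversal was not tested. It put 13 HXB/BXH strains nearer to BN-Lx/Cub for RT1-A2, and splitting RT1-S3 at its largest gap put 1 strain on that side. With a BIC gain over 6 required, 0 members had more than 1 cluster over all strains and 1 within HXB/BXH in the RefSeq table, and 1 and 1 in the first Ensembl table. Batch-adjusted strain means gave 17 correlated pairs of the 28 within HXB/BXH, against 10 in the main result, from fewer permutations. The share of all pairs of features was not computed for the adjusted means, so a general rise in correlation was not checked.

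Leaving out animals of 1 number moved the features called in the RefSeq table to between 2941 and 5109 over all strains, 2593 and 3124 within HXB/BXH, 532 and 912 within FXLE/LEXF and 1734 and 6188 among inbred strains, and the members called to between 5 and 6, 0 and 1, and 4 and 7 in these 3 panels. The first Ensembl table then gave 6445 to 8290 features over all strains and 1184 to 1789 within HXB/BXH. Leaving out 1 progenitor animal gave 202 to 1777 features and 0 to 1 members for BN-Lx/Cub against SHR/OlaIpcv in the RefSeq table, 502 to 1866 and 1 to 3 in the first Ensembl table, and 375 to 783 and 0 to 3 for F344/Stm against LE/Stm there. Members with more than 1 cluster ranged from 0 to 1 over all strains and 2 to 4 within HXB/BXH (RefSeq), and from 1 to 4 and 1 to 2 (first Ensembl).

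Some of the differences that were not called crossed zero when 1 progenitor animal was left out. For BN-Lx/Cub against SHR/OlaIpcv in the RefSeq table they ranged from -0.484 to 0.0543 for Tap2, -0.191 to 0.0297 for Psmb9, -0.112 to 0.315 for Tap1 and -0.106 to 0.0347 for Psmb10. In the first Ensembl table they ranged from -0.151 to 0.129 for B2m, -0.0289 to 0.318 for Tap2 and -0.0369 to 0.0546 for Psmb8. For F344/Stm against LE/Stm they ranged from -0.0380 to 0.0748 for B2m in the RefSeq table, and in the first Ensembl table from -0.320 to 0.216 for B2m, -0.911 to 0.0223 for Psmb8 and -0.362 to 0.0552 for Psmb9.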
